A study of Homo sapiens with 6 samples.

Results

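The DNA replication machinery was examined as a list of 46 genes, chosen by name from the proteins that open replication origins, unwind DNA, copy it, join the copied pieces, supply its nucleotides and package it. Each gene was taken as all rows of the deposited transcript table with its symbol, and FPKM, the fragments per kilobase of transcript scaled to library depth, were summed over those rows in each library. All 46 genes were found, with 343 transcripts, among 29236 annotated genes, and all 46 passed the filter of 1 FPKM in at least 3 of 6 libraries that left 13448 genes for testing. The samples were xenograft tumours of HT-29, an established human colorectal cancer line of wild-type genotype as labelled, grown in a host animal that the labels do not describe. Tumours were sampled at day 15: 3 untreated controls and 3 treated with extracorporeal shock waves (pressure pulses sent through the skin) at 60 mJ. All 6 carry 1 batch value. The labels name no animals, so a p-value here reflects the spread among samples, which may be technical.

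Replication starts when the origin recognition complex, CDC6 and CDT1 load the ring-shaped MCM2-7 helicase onto DNA in G1 phase. CDC45 and the GINS complex then turn the ring into an active helicase in S phase. Polymerases alpha, delta and epsilon copy the strands behind it, and the PCNA clamp holds polymerase delta to DNA. Many of these genes are transcribed in late G1 and S phase under E2F transcription factors, so that their RNA is more abundant in dividing tissue. In bulk RNA, fewer cells in S phase and less RNA per cell cannot be told apart.

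E2F binding is known by short GC-rich spellings, and these were looked for in the promoters of the list, from 250 bases before to 50 after each gene start in RefSeq on GRCh38.p14. The spellings were TTTCCCGC, TTTGGCGC, TTTCGCGC and TTTGCCGC, searched on both strands. Of the 46 genes, 40 had at least 1 promoter in the RefSeq table, with 54 promoters in all; the other members were GINS4, MCM4, MCM5, POLD3, RPA2 and RPA3. At least 1 spelling stood in 20 of the 54 promoters, which is 37.0%, against 3.31% of all 35116 promoters. By gene, 19 of 40 members held one, 47.5%, against 620 of 9373 tested genes with a promoter, 6.61%. The 200 bases before the start are shown for 3 helicase subunits and the clamp because they carry these letters in different numbers and places. Only promoters with a spelling were taken for display, so the windows do not stand for every promoter of a gene. All 4 are read on the minus strand, 5′ to 3′. Capitals mark the E2F spellings of either strand that lie wholly in the window.
MCM6 (chr2:135876444-135876643): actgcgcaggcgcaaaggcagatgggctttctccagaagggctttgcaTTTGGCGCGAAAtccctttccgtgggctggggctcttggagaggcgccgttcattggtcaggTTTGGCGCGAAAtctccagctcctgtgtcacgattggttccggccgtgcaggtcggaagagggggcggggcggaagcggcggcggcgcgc
MCM7 (chr7:100101398-100101597): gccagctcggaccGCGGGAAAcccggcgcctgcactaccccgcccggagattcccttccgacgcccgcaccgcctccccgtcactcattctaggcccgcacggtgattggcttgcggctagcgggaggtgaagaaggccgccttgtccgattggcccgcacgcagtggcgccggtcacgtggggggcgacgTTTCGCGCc
MCM3 (chr6:52284743-52284942): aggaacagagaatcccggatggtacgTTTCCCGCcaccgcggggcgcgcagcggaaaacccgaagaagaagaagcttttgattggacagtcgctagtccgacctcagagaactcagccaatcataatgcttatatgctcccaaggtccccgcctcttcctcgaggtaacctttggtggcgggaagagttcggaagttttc
PCNA (chr20:5126623-5126822): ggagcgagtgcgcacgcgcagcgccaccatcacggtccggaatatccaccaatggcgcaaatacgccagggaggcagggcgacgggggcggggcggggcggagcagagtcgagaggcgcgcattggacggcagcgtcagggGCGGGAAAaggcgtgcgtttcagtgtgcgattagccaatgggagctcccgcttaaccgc

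The MCM6 window held 4 matches in 2 overlapping pairs, the MCM7 window 2 and the MCM3 and PCNA windows 1 each. The MCM3 promoter held another, TTTCGCGC at -4, which runs across the gene start and is not in capitals. MCM7 has 3 promoters in the table and PCNA 2, and for both only the promoter shown held an E2F spelling. The PCNA promoter shown lies at the start of ENST00000379160, at 1.68 to 8.34 FPKM. Its other promoter lies near the start of ENST00000379143, at 83.9 to 125 FPKM. CCAAT, the box bound by the factor NF-Y, stood in 59.3% of member promoters against 34.6% of all. TTTGAA, the CHR letters of genes active in G2 and mitosis, stood in 3.70% against 15.2%. A match is a run of letters and not a shown binding site. The 19 members with an E2F spelling had a median difference between shock wave and control tumours of -0.07 on the log2(FPKM + 1) scale, and 6 of them were positive. The 21 without had a median of 0.05, with 12 positive. This split was not tested, and no such split over all genes is given beside it. Differences of members also varied with transcript length and with shock wave 3 left out, as given below.

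The libraries held 48298264 to 58539633 recovered reads. Each member had 47 to 17034 reads per library, the fewest for GINS4 in shock wave 3. All 12 epithelial markers of the labelled line were present, with a summed level of 6271 to 8970 FPKM. Stroma, vessels and leukocytes of a xenograft come largely from the host, so human markers do not measure them. Removal of host reads is not stated in the sources used here, and a host share in the FPKM of conserved genes was not tested. Among human markers of other cells, 8 of 10 fibroblast genes were in the table. They summed to 12.2 to 27.8 FPKM in controls and 7.41 to 17.4 FPKM in shock wave tumours. Of this, COL1A1 gave 23.0, 5.78 and 8.24 FPKM in controls and 1.32, 9.25 and 3.45 FPKM in shock wave tumours (-1.28). FAP differed by -0.18, LUM by 0.18 and ACTA2 by 0.28, and the remaining fibroblast genes were at or near 0. The part of these markers in the results was not tested. For endothelium, 5 of 7 genes summed to 8.27 to 13.9 FPKM, nearly all of it from ENG at 8.19 to 13.5 FPKM. For leukocytes, 6 of 8 summed to 13.4 to 20.3 FPKM, most of it from CD68 at 8.44 to 15.9 FPKM. PTPRC, the pan-leukocyte surface phosphatase, was at or near 0. Relative to the mean of the 6 libraries, log2(FPKM + 1) of all genes had a slope of -0.178 per doubling of transcript length in shock wave 3, against -0.0499 to 0.0684 in the other 5.

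No replication gene was called different between shock wave and control tumours. None of the 46 passed limma's test on log2(FPKM + 1) at a Benjamini-Hochberg adjusted p under 0.05 in either direction, as 0 of 13448 genes did (0%), and the smallest adjusted p of a member was 0.648. With voom on the recovered reads 0 members were called as well. At an unadjusted p under 0.05 limma had 2 of 46 members (4.35%) and 932 of all genes tested (6.93%). Of the members, 21 were positive and 25 negative (24 and 22 after quantile normalization, 25 and 21 with the length trend removed, and 31 and 15 without shock wave 3), so that 45.7% were above 0 against 48.4% of all genes tested, and the median was -0.02 against -0.01. The median absolute difference was 0.196 for members and 0.209 for all genes. For 41 of 46 members the 95% interval lay within 1 in either direction on the log2(FPKM + 1) scale, as for 73.7% of all genes. Larger differences on that scale lie outside the interval for these 41. For genes at low levels, 1 on that scale is more than 2-fold in FPKM. The exceptions were CDC45, POLA1, POLD3, RFC5 and RRM2.

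**Figure D1:**
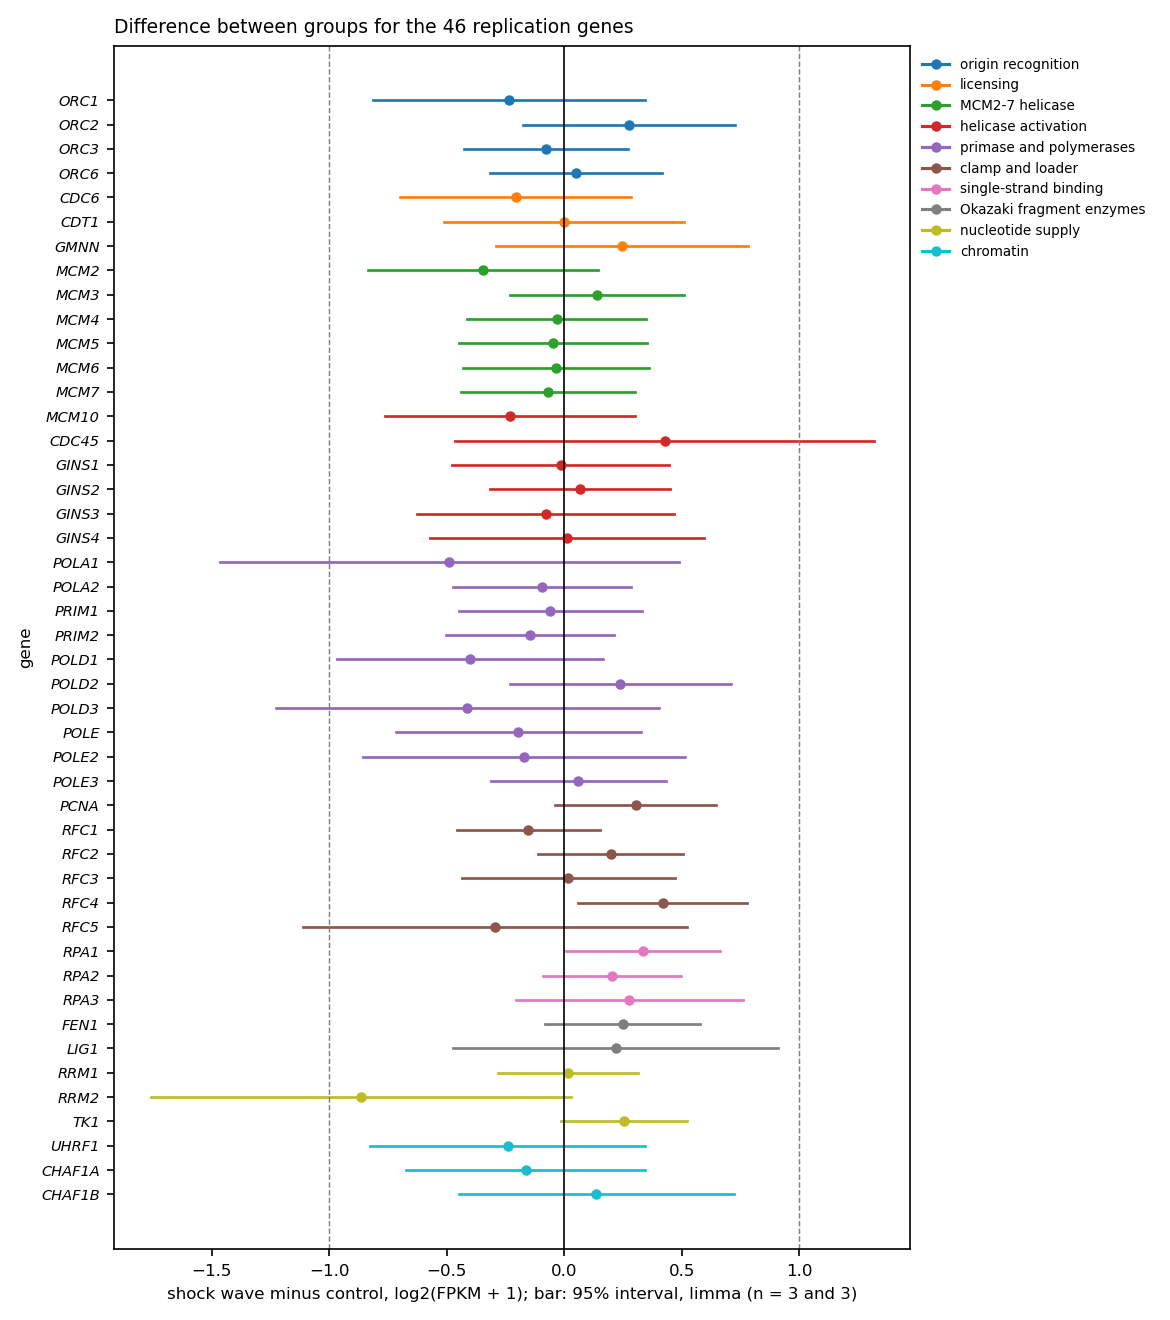
Difference between shock wave and control tumours for each of the 46 genes, on the log2(FPKM + 1) scale on the x axis. Bars are limma's 95% interval, colour is role, and dashed lines mark a difference of 1 in either direction. Intervals of RFC4 and RPA1 lie above 0, and those of the other 44 genes include 0.

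Group ranges did not overlap for 5 members. For RFC4, RPA1, TK1 and RPA2 all 3 shock wave values lay above all 3 controls, which is 8.70% of the members against 7.75% of all genes. RFC1 alone was lower throughout, 2.17% against 8.69%. These shares are near or under the background and are not a result about the list.

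Origin recognition was represented by ORC1, ORC2, ORC3 and ORC6, subunits of the complex that marks origins. Their summed level was 33.3, 40.6 and 31.3 FPKM in controls 1, 2 and 3 and 35.7, 36.6 and 32.9 FPKM in shock wave tumours 1, 2 and 3, so the groups overlapped. ORC1 (chr1:52372829-52404459, minus strand) was at 4.10, 6.07 and 4.54 FPKM in controls and 4.84, 4.61 and 2.73 FPKM in shock wave tumours, a difference of -0.24 with an SE of 0.24, and of -0.03 without shock wave 3. Its level was highest in control 2 and lowest in shock wave 3. ORC3 was at 14.6, 16.4 and 12.8 FPKM in controls and 14.4, 14.0 and 12.8 FPKM in shock wave tumours. ORC2 and ORC6 differed by 0.28 and 0.05 on the log2 scale.

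The licensing genes were CDC6 and CDT1, which load the helicase, and GMNN, whose product geminin binds CDT1 and stops a second loading in the same cycle. CDC6 (chr17:40287633-40304657) was at 11.88, 12.11 and 11.97 FPKM in controls and at 10.1, 13.6 and 7.79 FPKM in shock wave tumours. The controls were nearly equal, and the shock wave tumours lay on both sides of them. CDT1 (chr16:88803213-88809258) was at 17.6, 20.9 and 15.4 FPKM in controls and at 20.6, 13.2 and 20.7 FPKM in shock wave tumours. For GMNN (chr6:24774931-24786099), levels were 42.9, 45.98 and 26.6 FPKM in controls and 47.1, 38.7 and 48.5 FPKM in shock wave tumours, with control 3 lowest. Differences were -0.21 for CDC6, -0.00 for CDT1 and 0.25 for GMNN, with SEs of 0.21, 0.21 and 0.23. CDC6 was at -0.03 without shock wave 3, and GMNN at 0.0052 without control 3.

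The helicase subunits MCM2 to MCM7 form 1 ring and are needed in equal numbers in it. Their sum was 236, 272 and 229 FPKM in controls (246 ± 23.4, SD, n = 3) and 276, 238 and 197 FPKM in shock wave tumours (237 ± 39.3, SD, n = 3). The groups overlapped, with shock wave 1 the highest library and shock wave 3 the lowest. MCM7 was the largest part of this sum, and coding transcripts held only 15.4 to 47.3% of its FPKM. MCM2 (chr3:127598223-127622436) was at 31.9, 36.7 and 29.1 FPKM in controls and at 30.7, 27.9 and 18.8 FPKM in shock wave tumours. Its difference was -0.35 with an SE of 0.21 (95% interval -0.83 to 0.14), the lowest of the 6, and -0.14 without shock wave 3. MCM3 (chr6:52264009-52284881) was at 32.1, 35.8 and 33.2 FPKM in controls and at 45.5, 34.2 and 33.0 FPKM in shock wave tumours. Shock wave 1 stood above the other 5 libraries for MCM3. MCM4 (chr8:47960185-47978160) was at 42.4, 49.4 and 41.0 FPKM in controls and at 47.3, 47.9 and 35.3 FPKM in shock wave tumours. MCM5 (chr22:35400063-35425430) was at 15.2, 19.0 and 16.1 FPKM, then at 18.9, 16.2 and 13.6 FPKM. Both had shock wave 3 as their lowest library and control 2 as their highest. MCM6 (chr2:135839626-135876426) was at 20.8, 25.02 and 19.6 FPKM in controls and at 23.6, 22.7 and 17.7 FPKM in shock wave tumours. MCM7 (chr7:100092728-100101940), with the largest FPKM of the 6, was at 93.6, 106 and 89.7 FPKM, then at 110, 89.3 and 78.7 FPKM. Differences of MCM3 to MCM7 were 0.14, -0.03, -0.05, -0.03 and -0.07, each smaller than its SE of 0.16 to 0.17.

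**Figure D2:**
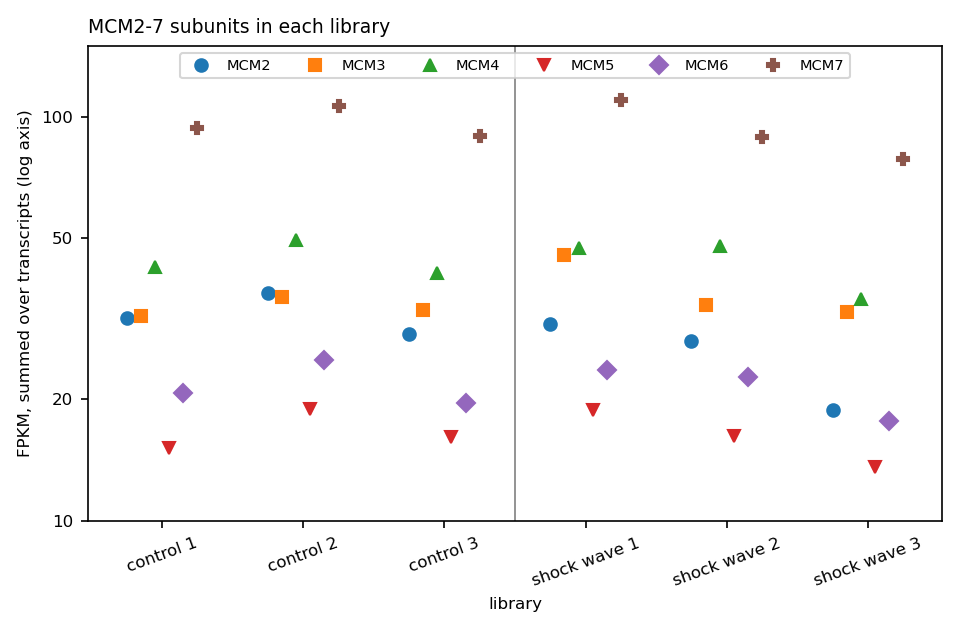
FPKM of MCM2 to MCM7 (log axis) in each of the 3 control and 3 shock wave libraries on the x axis, 1 point per gene and library. MCM7 lies between 78.7 and 110 FPKM and the other subunits between 13.6 and 49.4; shock wave 3 is the lowest library for all but MCM3, for which control 1 is lowest.

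Across libraries the 6 subunits were positively correlated. On log2(FPKM + 1), their 15 pairwise Pearson r over the 6 libraries ran from 0.27 (MCM2 with MCM3) to 0.98 (MCM4 with MCM6); libraries differ in depth and length bias, which all genes share, so r is a description. Against the mean of their standardised levels, r was 0.97 for MCM5 and MCM7, 0.96 for MCM6, 0.93 for MCM4, 0.85 for MCM2 and 0.70 for MCM3. Each of the 6 is part of that mean, which raises its r. Other members with high r were CHAF1A at 0.97, ORC1 at 0.91 and POLE, RFC3 and POLE3 at 0.89 to 0.90. PCNA was at 0.16 and RPA3 at -0.69. The tested non-member genes most like the pattern over 6 libraries were ALDH1B1, NASP, MT-CO1, ZNF860, NANP and ABHD14A, with r from 0.985 to 0.995. They were picked for the highest r among all tested non-member genes, so such values come in part from the choice and do not show shared regulation. NASP, a chaperone of histones, was at 23.8, 35.3 and 22.8 FPKM in controls and 36.4, 25.1 and 16.9 FPKM in shock wave tumours.

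Activation of the helicase involves MCM10, CDC45 and GINS1 to GINS4. CDC45 (chr22:19479459-19520612) was at 20.8, 19.1 and 6.99 FPKM in controls and at 19.8, 18.5 and 19.9 FPKM in shock wave tumours. Control 3 stood far below the other 5 libraries, and the difference of 0.43 (SE 0.37, the largest positive value of the list) was -0.04 without it. MCM10 was at 3.70, 4.93 and 4.71 FPKM in controls and 3.92, 4.57 and 2.59 FPKM in shock wave tumours, a difference of -0.23 that was -0.05 without shock wave 3. GINS4 was the least abundant member, at 1.25, 2.69 and 2.03 FPKM and then 2.54, 1.91 and 1.496 FPKM. The other GINS genes differed by -0.08 to 0.07 between groups.

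Of 10 primase and polymerase genes, 8 were negative (7 after quantile normalization and 6 without shock wave 3), with a median difference of -0.16, and none passed the test. POLD1 (chr19:50384204-50418016), the catalytic subunit of polymerase delta, was at 30.3, 33.9 and 28.2 FPKM in controls and at 22.6, 16.6 and 32.3 FPKM in shock wave tumours. Shock wave 3 lay among the controls and the other shock wave tumours below them, and the difference was -0.40 (SE 0.24), from -0.64 without shock wave 3 to -0.18 without shock wave 2. POLD3, an accessory subunit of the same enzyme, was at 4.65, 8.796 and 8.34 FPKM in controls and at 4.14, 8.30 and 3.58 FPKM in shock wave tumours, a difference of -0.41 that ran from -0.73 without shock wave 2 to -0.22 without shock wave 3. POLE2, of polymerase epsilon, was at 4.32, 8.20 and 5.06 FPKM and then 5.63, 6.13 and 3.39 FPKM. Neither pair of groups separated. PRIM1, the catalytic primase subunit, was at 8.45, 7.74 and 6.61 FPKM in controls and at 6.54, 7.54 and 7.60 FPKM in shock wave tumours. POLA1, the catalytic subunit of polymerase alpha, differed by -0.49 (SE 0.41), and by -0.07 without shock wave 3, where it was at 0.970 FPKM. POLA2, PRIM2, POLD2, POLE and POLE3 differed by -0.20 to 0.24.

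PCNA, the clamp that tethers polymerase delta, was the most abundant member (chr20:5114953-5126626). It was at 90.4, 118 and 92.6 FPKM in controls (100.2 ± 15.2, SD, n = 3) and at 129, 113 and 128 FPKM in shock wave tumours (123 ± 8.92, SD, n = 3). Control 2 lay above shock wave 2, so the groups overlapped. The difference was 0.30 with an SE of 0.14 (95% interval -0.04 to 0.65). RFC4 (chr3:186789880-186807058), a subunit of the complex that loads the clamp, was at 11.5, 12.7 and 15.5 FPKM in controls and at 18.3, 17.2 and 18.2 FPKM in shock wave tumours. It had the smallest unadjusted p of the list and a difference of 0.42 (SE 0.15, 95% interval 0.06 to 0.78; limma adjusted p = 0.648). Against this, RFC1 (chr4:39287456-39366375), the large subunit, was at 15.6, 16.6 and 14.997 FPKM in controls and at 13.5, 14.8 and 13.8 FPKM in shock wave tumours. Its difference was -0.15 (SE 0.13), and -0.02 with the length trend removed. RFC2 was at 16.2, 16.7 and 19.3 FPKM in controls and at 20.6, 20.3 and 19.2 FPKM in shock wave tumours, overlapping narrowly. RFC5 was at 4.77, 9.47 and 7.93 FPKM and then 6.77, 7.72 and 3.30 FPKM. RFC3 differed by 0.02.

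The 3 subunits of RPA, which coats single-stranded DNA, were all positive, also under every scaling tried, and none passed the test. RPA1 (chr17:1829971-1900082) was at 15.4, 15.7 and 16.6 FPKM in controls and at 21.8, 17.8 and 21.5 FPKM in shock wave tumours, a difference of 0.33 (SE 0.14, 95% interval 0.01 to 0.66; limma adjusted p = 0.648). RPA2 (chr1:27891524-27914746) was at 22.8, 27.1 and 25.1 FPKM in controls and at 28.7, 27.7 and 30.2 FPKM in shock wave tumours. Both had separate groups, though the lowest shock wave value of RPA2 stood only just above the highest control. RPA3 was at 13.6 to 15.3 FPKM in controls and 15.2, 15.7 and 24.4 FPKM in shock wave tumours, with the highest value in shock wave 3. Differences of RPA2 and RPA3 were 0.20 and 0.28, and that of RPA3 was 0.068 without shock wave 3.

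Okazaki fragments, the short pieces of the lagging strand, are trimmed by the nuclease FEN1 and joined by the ligase LIG1. FEN1 (chr11:61792637-61797244) was at 35.8, 44.5 and 34.6 FPKM in controls and at 46.4, 42.2 and 47.6 FPKM in shock wave tumours, with a difference of 0.25 (SE 0.14). LIG1 was at 10.01, 20.7 and 20.9 FPKM in controls and at 20.1, 21.6 and 16.2 FPKM in shock wave tumours. Control 1 set the lowest LIG1 value, and the difference of 0.22 had an SE of 0.29.

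Nucleotide supply was given by RRM1 and RRM2, the subunits of ribonucleotide reductase, and by TK1, the thymidine kinase of dividing cells. RRM2 (chr2:10120698-10131419) was at 23.2, 62.7 and 37.7 FPKM in controls and at 14.8, 27.4 and 21.0 FPKM in shock wave tumours. Its mean was 41.2 ± 20 FPKM in controls and 21.1 ± 6.31 FPKM in shock wave tumours (SD, n = 3 each), the largest difference of the list at -0.87 (SE 0.38, 95% interval -1.76 to 0.03; limma adjusted p = 0.648). Control 1 lay between shock wave 2 and shock wave 3, and without control 2 the difference was -0.51. RRM1 (chr11:4094707-4138876) was at 37.8, 44.6 and 40.1 FPKM in controls and at 39.7, 45.1 and 39.0 FPKM in shock wave tumours. Its difference was 0.01 with an interval of -0.28 to 0.31. TK1 (chr17:78174075-78187233) was at 75.1, 88.3 and 80.2 FPKM in controls (81.2 ± 6.67, SD, n = 3) and at 98.3, 95.8 and 96.1 FPKM in shock wave tumours (96.7 ± 1.38, SD, n = 3). Every shock wave tumour was above every control, with a difference of 0.25 (SE 0.11, 95% interval -0.02 to 0.52; limma adjusted p = 0.648).

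UHRF1, CHAF1A and CHAF1B act on the chromatin of new DNA: UHRF1 brings maintenance methylation to it, and CHAF1A and CHAF1B are the large subunits of the histone chaperone CAF-1. UHRF1 was at 15.2, 21.5 and 17.5 FPKM in controls and at 15.5, 20.1 and 10.7 FPKM in shock wave tumours. Differences of the 3 genes were -0.24, -0.16 and 0.13, and each 95% interval included 0. Without shock wave 3, UHRF1 was at -0.017, CHAF1A at 0.024 and CHAF1B at 0.37, and without shock wave 1 CHAF1B was at 0.0033.

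Much of the variation of the list lay between libraries of the same group. Control 2 was the highest library for 25 of 46 members (54.3%), against 16.3% of all genes tested, and the lowest for none of them, against 15.9%. Shock wave 3 was the lowest library for 19 members (41.3%), against 35.2% of all genes, and control 1 for 14 (30.4%), against 13.8%. Shock wave 1 was lowest for 3 (6.52%), against 9.61%, and highest for 9 (19.6%), against 17.5%. The median member stood at -0.11, 0.19 and -0.06 from its own mean over 6 libraries in controls 1, 2 and 3, and at 0.11, 0.05 and -0.15 in shock wave tumours. All genes stood between -0.06 and 0.04. Across the 6 libraries, the highest value of a member was 1.19 to 5.23 times its lowest, with a median of 1.58.

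**Figure D3:**
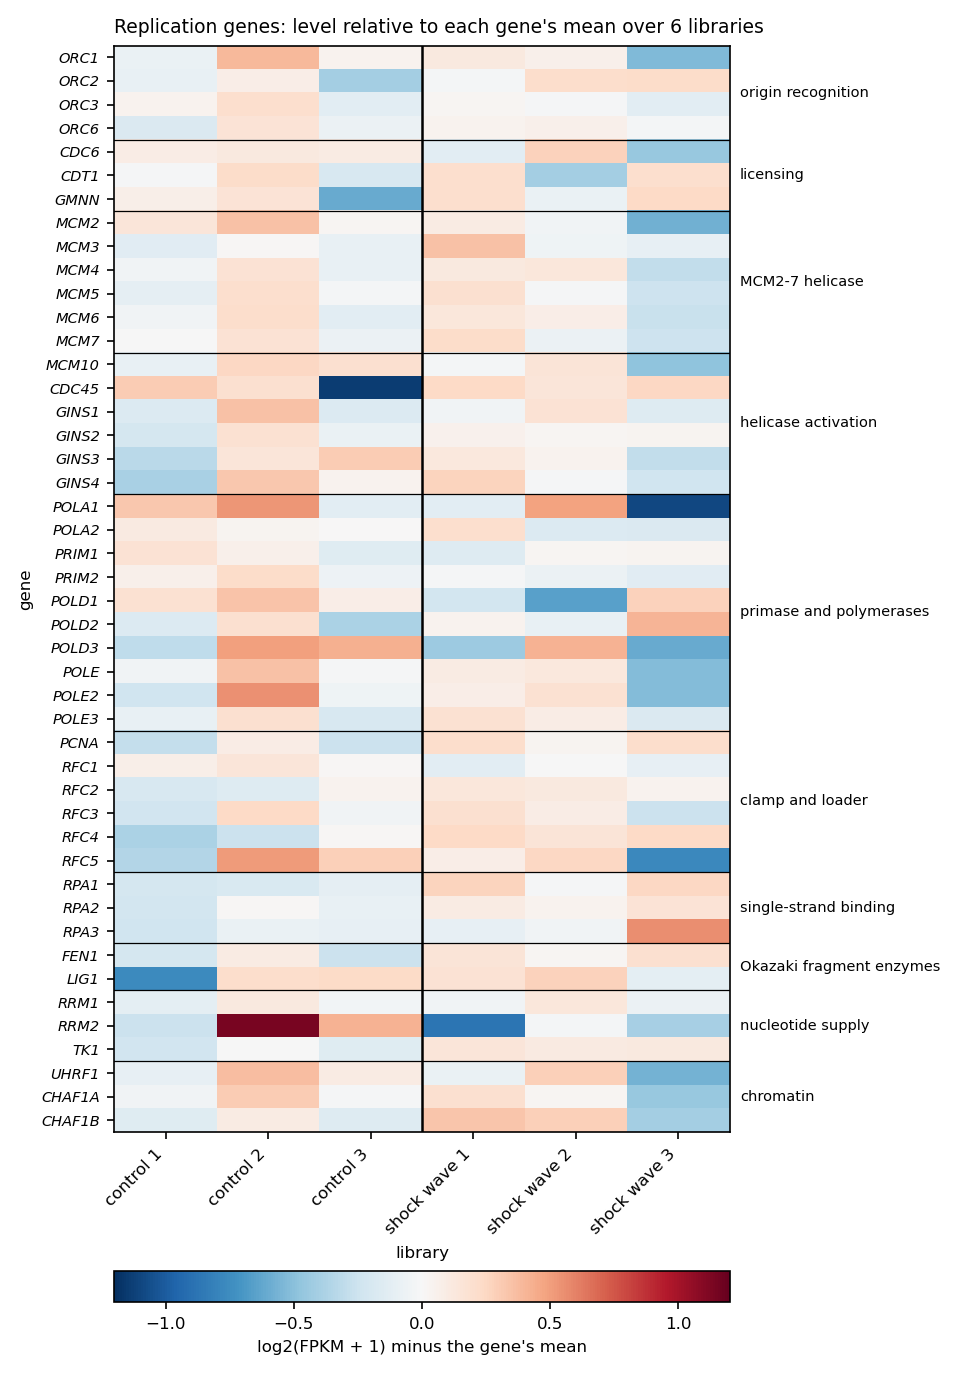
Level of each of the 46 genes in each library on the log2(FPKM + 1) scale, minus the gene's mean over the 6 libraries (colour), grouped by role; the line divides controls from shock wave tumours. Control 2 is above the mean for 41 genes and control 1 for 11.

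The difference between groups was related to transcript length. The mean transcript length of members ran from 1144 to 5575 bases with a median of 2725. Across the 46 members, Pearson r between log2 length and the difference of groups was -0.39, and across all genes tested -0.35; the points share the same 6 libraries, so this is a description. The 23 shorter members had a median difference of 0.06, with 15 positive, and the 23 longer -0.07, with 6 positive. Without shock wave 3 the medians were 0.10 and 0.02 and r was -0.21. After a length trend was removed from each library they were 0.06 and -0.02 and r was -0.11.

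**Figure D4:**
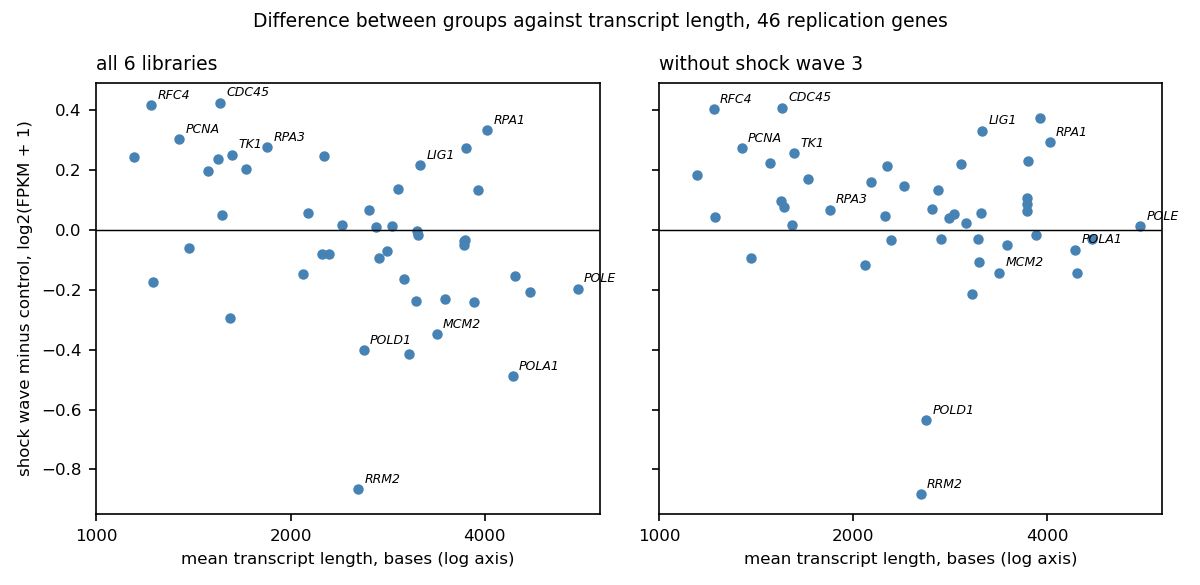
Difference between groups on the log2(FPKM + 1) scale against mean transcript length in bases (log axis) for the 46 genes, with all 6 libraries (left) and without shock wave 3 (right); each point is a gene. r is -0.39 on the left and -0.21 on the right, and POLA1 moves from -0.49 to -0.07.

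Within a gene, reads often went to a different transcript in different libraries. Among the 45 members with more than 1 transcript, the most abundant transcript differed between libraries for 20 (44.4%), against 51.3% of 11458 tested genes. It differed within the controls for 13 (28.9%, against 37.0% of tested genes) and within the shock wave tumours for 16 (35.6%, against 40.3%). Most of these exchanges therefore do not follow the groups. ORC1 alone had 1 leading transcript in every control and another in every shock wave tumour, 2.22% of members against 0.541% of all genes. ENST00000371568 was at 4.10, 6.07 and 2.73 FPKM in controls and at 0.855, 1.52 and 0.411 FPKM in shock wave tumours. ENST00000371566 was at 0, 0 and 1.82 FPKM in controls and at 3.98, 3.09 and 2.32 FPKM in shock wave tumours. Both encode the same protein-coding sequence and share 97.6% of the bases of the first and 100% of the second, so they differ only outside the coding sequence. Of 28517 transcripts tested, limma called 22 higher (0.0771%) and 36 lower (0.126%). None of the 108 transcripts of members was among them, and at an unadjusted p under 0.05 there were 10 (9.26%), against 6.58% of all. The smallest limma adjusted p was 0.495, for ENST00000371568 and for ENST00000613923 of POLD1 (-1.45 and -2.25). Groups were separate with shock wave higher for 7 member transcripts (6.48%, against 6.87%) and lower for 8 (7.41%, against 7.34%).

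MCM3 and CDC45 show how unevenly the libraries divided a gene. For MCM3, ENST00000229854 was at 0.547, 0.0117 and 6.78 FPKM in controls and at 42.8, 1.23 and 29.8 FPKM in shock wave tumours. ENST00000596288 was at 25.1, 4.66 and 20.4 FPKM, then at 0.257, 24.9 and 0.296 FPKM. These encode different coding sequences but share 100% and 97.3% of their bases. For CDC45, ENST00000404724 was listed at 0 in controls 1 and 3 and was at 13.2 FPKM in control 2, against 15.8, 15.1 and 15.9 FPKM in shock wave tumours. ENST00000263201 was at 16.7 FPKM in control 1 and at most 0.972 FPKM in the other libraries. In control 3, neither was above 0.807 FPKM, the library in which CDC45 as a gene was low. For RFC1, ENST00000349703 was at 10.4, 11.6 and 11.9 FPKM and then 1.93, 1.42 and 9.38 FPKM, and ENST00000381897 at 3.61, 2.22 and 1.10 FPKM and then 11.1, 12.2 and 3.76 FPKM. The RFC1 pair shares 99.4% or more of its bases. Of the 62.7 FPKM of RRM2 in control 2, ENST00000641198 gave 32.5 FPKM, and it was at most 0.173 FPKM in the other libraries.

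Coding transcripts held a median of 90.7% of a member's FPKM, against 88.6% over all tested genes with one. They held under 50% for 4 of 46 members (8.70%), against 13.6%. MCM7 was among them, at 15.4 to 47.3%: its retained-intron transcript ENST00000485286 was at 65.6, 66.5 and 42.9 FPKM in controls and at 76.2, 57.1 and 63.2 FPKM in shock wave tumours. The coding ENST00000303887 was at 22.5, 35.6 and 41.8 FPKM and then 27.6, 27.6 and 11.6 FPKM. These values overlapped between groups. The other 3 were ORC6 at 5.87 to 23.9%, PRIM1 at 15.6 to 47.7% and LIG1 at 26.9 to 41.5%.

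**Figure D5:**
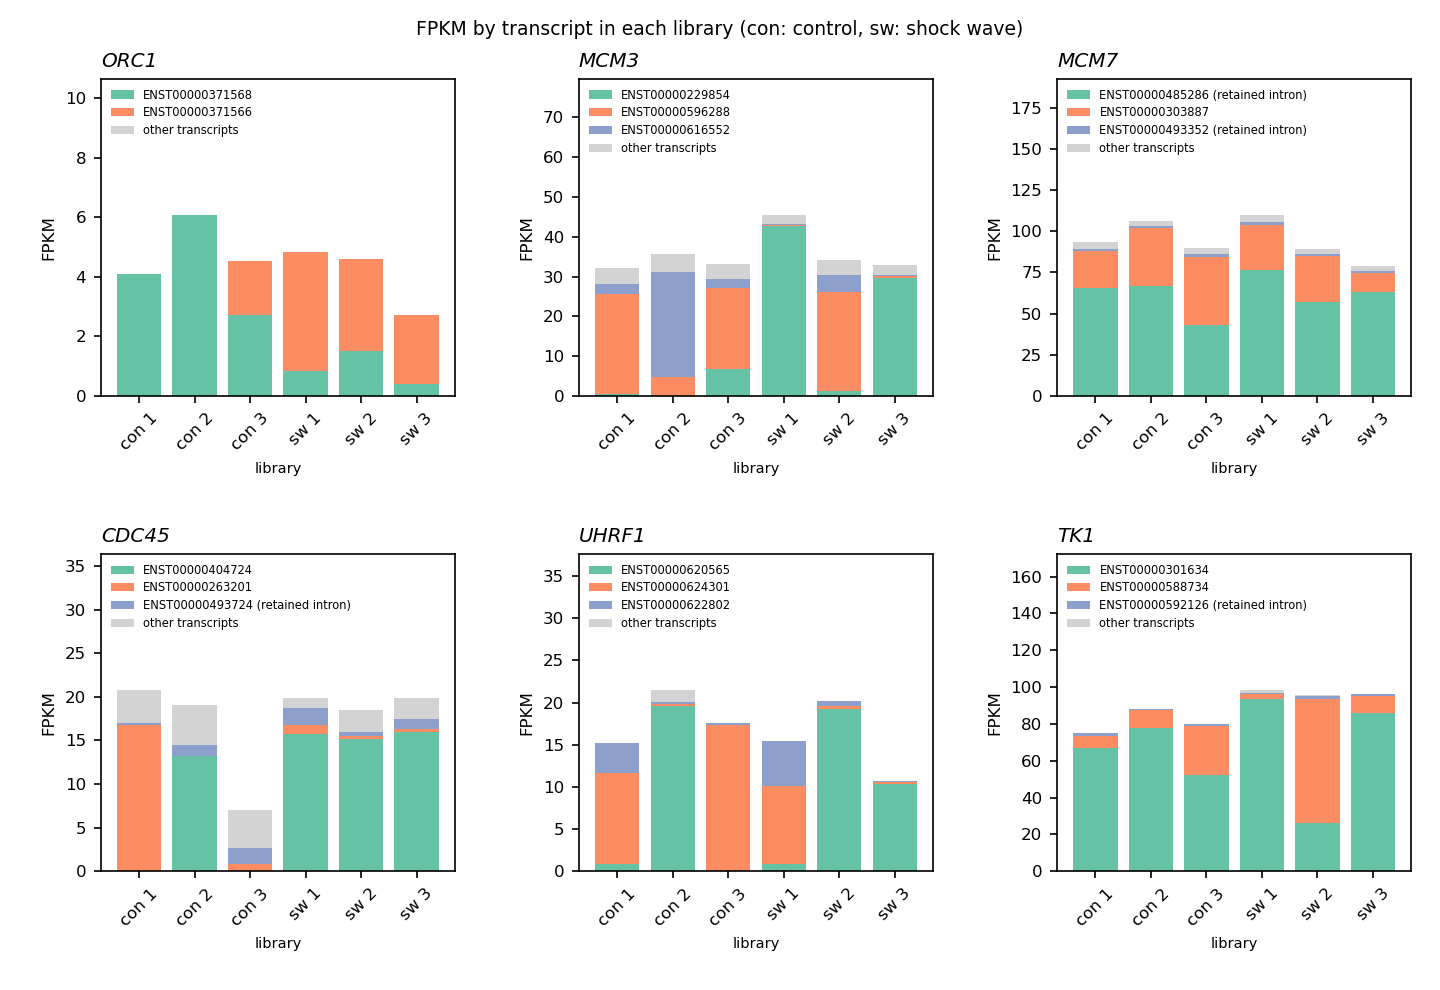
FPKM of ORC1, MCM3, MCM7, CDC45, UHRF1 and TK1 in each library, stacked by transcript, with other transcripts in grey. The leading ORC1 transcript differs between the groups, and that of MCM3, CDC45, UHRF1 and TK1 changes within a group.

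UHRF1 and TK1 also changed leading transcript within a group. ENST00000620565 of UHRF1 was at 0.841, 19.6 and 0.0104 FPKM in controls and at 0.822, 19.2 and 10.3 FPKM in shock wave tumours. ENST00000301634 of TK1 was at 67.0, 77.8 and 52.4 FPKM, then at 93.6, 26.4 and 85.9 FPKM, and ENST00000588734 was at 66.9 FPKM in shock wave 2 and at most 26.4 FPKM elsewhere. GMNN and MCM4 each exchanged transcripts that encode the same coding sequence.

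Sharing of reads with other genes bears on a few members. Of 13 pseudogenes named after members, 4 were in the table and none exceeded 0.264 FPKM. Gene spans overlap those of more or similarly abundant genes on the opposite strand for FEN1 (TMEM258, 136 FPKM), RFC4 (EIF4A2, 73.3 FPKM), CHAF1A (UBXN6, 41.2 FPKM), RFC5 (WSB2, 40.4 FPKM), POLA1 (EEF1B2P3, 30.4 FPKM), MCM2 (TPRA1, 25.3 FPKM) and GINS2 (GSE1, 8.71 FPKM). PRIM1 overlaps NACA (357 FPKM) and CHAF1B overlaps MORC3 (9.39 FPKM) on their own strand, and MCM7 overlaps the less abundant AP4M1 (16.5 FPKM) on the opposite one. Whether counting used strand is not given in the sources used here, so these members are uncertain.

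The other genes of the pathway were not called either. All 59 on a second list, from the origin kinase CDC7 to the histone chaperones and E2F factors, were tested, and limma called none of the 59 in either direction, as it called 0% of all genes; 5 had an unadjusted p under 0.05 (8.47%), against 6.93% of all genes. Groups were separate with shock wave higher for 2 (3.39%, against 7.75% of all genes) and lower for 6 (10.2%, against 8.69%). Of them 24 were positive and 35 negative, with a median of -0.04. The smallest p belonged to E2F3, a transcription factor of the E2F family, at 3.72, 3.86 and 6.49 FPKM in controls and at 1.79, 0.668 and 0 FPKM in shock wave tumours (-1.73, SE 0.40; limma adjusted p = 0.648). The next 5 were DONSON (-0.68), MMS22L (-0.63), RNASEH2A (0.42), SSRP1 (-0.40) and CLSPN (-1.18). CLSPN, claspin of the fork checkpoint, was at 4.72, 5.41 and 3.82 FPKM in controls and at 0.627, 4.85 and 0.607 FPKM in shock wave tumours, the groups overlapping at shock wave 2. MKI67, the common proliferation marker, was at 2.43, 9.93 and 28.4 FPKM in controls and at 2.59, 5.57 and 6.604 FPKM in shock wave tumours, and did not pass (-0.87; limma adjusted p = 0.688). The 5 other proliferation genes listed lay nearer to 0: TOP2A at -0.27, PLK1 at -0.13, BIRC5 and CCNB1 at 0.09 and AURKA at 0.15. None of the 6 passed the test.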

How the data were processed

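RNA sequencing was done on 6 xenograft samples, with Trizol extraction and a SMARTER mRNA kit per the labels' protocols. The file the authors deposited is 1 table of normalized values over 131516 transcript rows; the unit is not named, and the deposited values were taken as FPKM because value times transcript length gave whole reads for 99.64 to 99.70% of values worth 0.5 to 100 reads (tolerance 0.05). Lengths came from GENCODE release 29. Per the submitters' processing notes the build was hg38. Aligner and quantifier: not given in the sources used here. The 15031 assembled rows without a gene were left out. FPKM of annotated transcripts were summed per symbol. A gene was tested if 3 or more samples reached 1 FPKM. The test was limma's (version 3.58.1, R 4.3.3), fitted to log2(FPKM + 1) values with a trend of variance on level, with Benjamini-Hochberg adjustment over all 13448 genes and a threshold of 0.05. Log2 differences are shock wave minus control on that scale, which understates changes of low genes. The fit was tested on simulated data with independent noise per gene and planted differences larger than that of any member. The simulation held no shared library or length effect, so it does not bear on these. Members and lists were chosen with earlier results of these data known. Values per sample are given for the clamp, MCM2 to MCM7, licensing and nucleotide genes, the 8 members with the smallest p, members with separate groups and members whose leading transcript varied; others are ranges. Coordinates are hg38, counted from 1. Alternatives were another variance model, scalings, filters, a pseudocount of 0.1, the replicate block, each replicate left out, recovered reads with voom and removal of a length trend; coding transcripts alone were added after seeing the data.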

Additional observations from a re-analysis of the deposited data

How the results depend on the processing

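No member passed the threshold in any alternative run, and 23 of 46 members, RFC4, RPA1, TK1, RPA2, PCNA, MCM2 and RRM2 among them, kept their direction in every one. Among all genes, leaving out 1 replicate gave 0 to 1 called higher and 0 to 4 lower, with the 1 and 4 without shock wave replicate 2. Recovered reads gave 0 higher and 2 lower, and coding transcripts alone, added after seeing the data, 1 and 1. Members with separate groups numbered 4 to 12 higher and 1 to 6 lower without 1 replicate, where separation is also more frequent over all genes: the 12 without control replicate 2 are 26.1% against 12.4% of all genes, the 6 without control replicate 1 are 13% against 12.8%, and 0 lower with recovered reads or with the length trend removed. Called transcripts of members numbered 0 to 1 without 1 replicate, the 1 being ENST00000404724 of CDC45 without control replicate 2. The share called over all transcripts in that run is not given here. That transcript was listed at 0 in the remaining controls 1 and 3. In control 1, ENST00000263201 of the same gene was at 16.7 FPKM, so the call is not a result about the gene. The members' median ran from -0.10 to 0.07, and 16 members were positive without control replicate 1 against 29 without control replicate 2. Log2 differences changed sign with quantile normalization for CDT1 (0.0028), GINS1 (0.021), GINS3 (0.0101), PRIM1 (0.017) and RRM1 (-0.037), and with recovered reads for GINS4 (-0.73) and RFC3 (-0.0016). Without the length trend they did for MCM4 (0.067), MCM5 (0.052), MCM6 (0.065), CDT1 (0.066), GINS1 (0.054) and ORC6 (-0.0085), and with coding transcripts alone for MCM4 (0.00029), CDT1 (0.016), GINS1 (0.023), GINS4 (-0.27), ORC6 (-0.29), POLA2 (0.15), PRIM1 (0.35) and POLE3 (-0.20). Without 1 replicate the ranges that crossed 0 were MCM3 -0.0041 to 0.22, MCM4 -0.11 to 0.11, MCM5 -0.16 to 0.063, MCM6 -0.11 to 0.089, MCM7 -0.20 to 0.0396, CDT1 -0.11 to 0.20, CDC45 -0.037 to 0.69, GINS1 -0.11 to 0.16, GINS2 -0.018 to 0.18, GINS3 -0.26 to 0.052, GINS4 -0.18 to 0.18, ORC3 -0.16 to 0.0042, ORC6 -0.023 to 0.15, PRIM1 -0.15 to 0.011, POLE -0.31 to 0.014, POLE2 -0.34 to 0.059, POLE3 -0.022 to 0.17, RFC3 -0.093 to 0.15, RFC5 -0.54 to 0.017, LIG1 -0.11 to 0.39, RRM1 -0.049 to 0.079 and CHAF1A -0.30 to 0.024. The causes were not tested. No shared effect of replicate number was seen (correlations of same-numbered deviations -0.01, -0.01 and 0.03), which does not settle whether samples were paired. With the replicate block limma called 0 genes, with 963 at an unadjusted p under 0.05. A filter of 5 FPKM tested 41 members. GINS4 had the fewest reads of a member, 47 in shock wave 3, although that library was the deepest at 58539633 reads. Coding transcripts held 2.35% of its FPKM there, against 73.8 to 91.3% in the other libraries. The cause was not tested.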
